A study of Homo sapiens with 6 samples.

Results

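The FOS and JUN genes encode subunits of AP-1, a dimeric transcription factor whose members pair through a leucine zipper and bind DNA through the adjoining basic region. The genes described here are FOS, FOSB, FOSL1 and FOSL2, JUN, JUNB and JUND, and ATF3, a stress-inducible relative that dimerises with JUN proteins. They were taken by symbol, 8 genes of the 60612 in the deposited table, and each symbol stood on a single row. The choice was made with their difference between the groups already known, above all the low level of FOS in the overexpression libraries, so that difference is described for each of them without a test.

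Expression was measured by RNA-seq in SH-SY5Y, an established human neuroblastoma cell line. A first group of 3 libraries is labelled CDKN2B-AS1 overexpression (OE libraries), for the noncoding antisense RNA of the CDKN2B tumour suppressor locus. The other 3 libraries, titled stuffer, are of cells given a control vector by infection. How the RNA was overexpressed, and from which promoter, is not stated in the labels. OE columns carry the tag LVx2 and control vector columns the tag LVx1, neither explained, and any handling they stand for cannot be told apart from the group. Separate cultures are not mentioned either, so SDs and p-values measure variation among libraries that could be technical repeats.

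Values are FPKM, fragments scaled by gene length and by library total. The recovered depth ran from 20466583 to 48996425 fragments in OE libraries and from 29048596 to 45102020 in control vector libraries. CDKN2B-AS1 averaged 0.332 ± 0.0252 FPKM in OE libraries and 0.250 ± 0.0522 FPKM in control vector libraries (SD, n = 3 each), a ratio of 1.33 (exact two-sided permutation test, p = 0.1, the smallest value that 3 libraries against 3 allow). Of 16 markers of adrenergic neuroblastoma cells 14 reached the filter for testing (1 FPKM in at least 3 of the 6 libraries). Among these was DBH, the enzyme that makes noradrenaline, at 598 to 630 FPKM in OE and 489 to 671 FPKM in control vector libraries. INSM1 was listed at 0 in all 6 libraries. TH was at 0 in OE replicates 1 and 2 and control vector replicates 2 and 3. It was below 1 FPKM in the remaining libraries. The markers TH and INSM1 thus stayed below the filter. Of the immune markers 0 of 8 reached it, of the epithelial markers 0 of 8 and of the Schwann and glial markers 1 of 8, and the leukocyte marker PTPRC was listed at 0 in all 6 libraries. Of 10 fibroblast markers 6 did, with LUM at 14.6 to 21.4 FPKM in OE and 9.10 to 21.1 FPKM in control vector libraries. The summed fibroblast markers were at 53.4 to 62.6 FPKM in OE and 51.6 to 65.0 FPKM in control vector libraries, and the summed adrenergic markers at 1444 to 1600 FPKM in OE and 1343 to 1505 FPKM in control vector libraries.

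In most cells FOS, FOSB and JUNB belong to the immediate early genes, which are transcribed within minutes of a growth factor, depolarisation or stress signal without new protein synthesis, and whose messages decay quickly. FOS proteins do not form stable dimers with each other and act with a JUN partner, whereas JUN proteins also pair among themselves. In neurons and neuroblastoma cells FOS is widely used as a readout of recent stimulation. Serum response elements and cyclic AMP response elements in their promoters receive these signals through SRF, ternary complex factors and CREB.

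The promoters show what the most abundant members have in common and where they differ. The stretches below hold the 150 bases before the annotated start of each gene, 5′ to 3′ on the gene's strand, from RefSeq on GRCh38.p14. FOS lies at chr14:75278678-75278827 (plus strand), JUNB at chr19:12791336-12791485 (plus strand), JUN at chr1:58784048-58784197 (minus strand) and JUND at chr19:18281623-18281772 (minus strand). Capitals mark the core of a cyclic AMP response element (TGACG or its reverse complement CGTCA), the variant TGACATCA and the TATA box TATAAA.
FOS: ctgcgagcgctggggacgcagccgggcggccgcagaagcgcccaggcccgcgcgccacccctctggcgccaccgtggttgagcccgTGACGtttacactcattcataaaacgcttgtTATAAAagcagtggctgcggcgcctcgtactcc
JUNB: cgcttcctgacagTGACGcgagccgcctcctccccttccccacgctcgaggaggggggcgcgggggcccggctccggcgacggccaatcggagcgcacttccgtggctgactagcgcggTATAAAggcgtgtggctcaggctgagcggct
JUN: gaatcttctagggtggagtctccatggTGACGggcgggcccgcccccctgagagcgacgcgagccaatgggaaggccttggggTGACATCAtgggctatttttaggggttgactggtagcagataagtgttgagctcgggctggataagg
JUND: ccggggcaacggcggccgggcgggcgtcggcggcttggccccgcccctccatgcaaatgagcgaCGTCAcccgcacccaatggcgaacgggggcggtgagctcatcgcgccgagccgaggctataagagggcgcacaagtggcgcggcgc

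Across the table's window of 250 bases before to 50 after a start, searched on both strands, the core TGACG was present in 6 of the 8 member promoters, against 24.6% of all 35116 promoters. These 6 had a GC content of 62.0% to 77.0%, against a median of 58.7% over all promoters. The share over all was not matched for base composition. In FOS the core lay at -64 to -60 and in FOSB at -60 to -56, at nearly the same distance from the TATA box, which began at -33 and -30. The whole element TGACGTCA was found in JUND alone among the members, at -200 to -193, and in 1.85% of all promoters. JUN carried TGACATCA at -67 to -60 and the upstream start of ATF3 carried it at -123 to -116, against 2.61% of all promoters. A TATA box on the gene's strand was found in 4 member promoters, those of FOS, FOSB, JUNB and, far upstream at -230, the downstream start of ATF3, against 7.33% of all. The AP-1 site TGACTCA was found in FOSL2, just past the start at 5 to 11, and in 4.95% of all promoters. A CArG box, the core of the serum response element, was found in 0 of 8 member windows and 1.29% of all. Boxes more than 250 bases before a start lie outside the window and were not searched, so this 0 does not mean that the promoters lack one. TGACG lies within TGACGTCA, so JUND counts for both. The box CCAAT was found in 4 member promoters and 34.6% of all. FOSL1 is not among the 7 members matched.

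**Figure D1:**
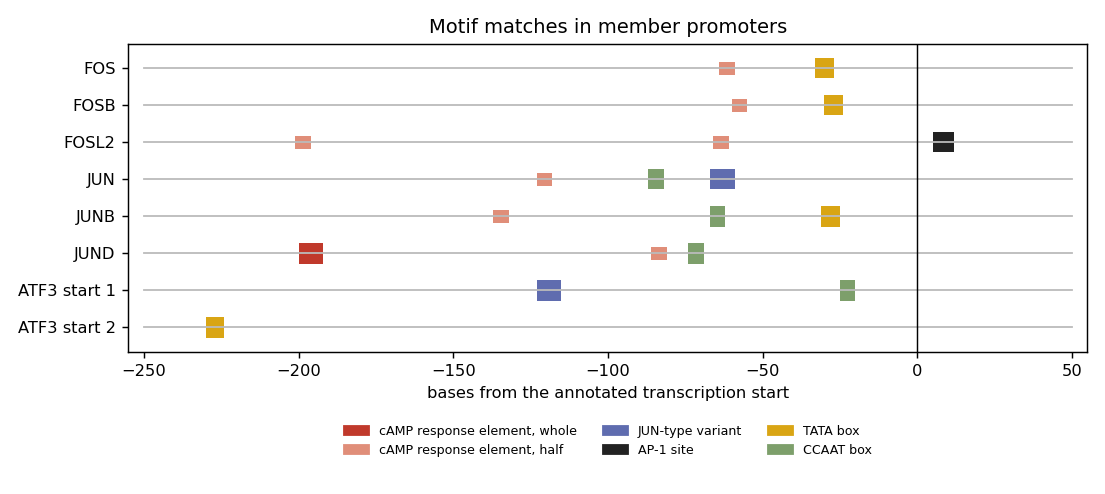
Positions of motif matches in the promoters of 7 members, with ATF3 drawn at both its annotated starts. The horizontal axis gives bases from the annotated transcription start, and each coloured block is a match on either strand. FOS and FOSB share a cyclic AMP response core near -60 and a TATA box near -30.

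The messages also differ in build. The principal transcripts of JUN, JUNB and JUND have a single exon, 3 of the 8 members against 6.24% of 13896 genes with a principal transcript and a 3′ UTR in GENCODE v29, and the other 5 have 4 exons each. JUND had a GC content of 69.7%, higher than 99.4% of those transcripts, and JUNB 64.9%, higher than 95.3%, whereas FOS had 52.6%, JUN 56.7% and ATF3 50.8%, with a median of 49.6% over all. AU-rich elements, which shorten the life of early response messages, were searched as ATTTA and as the stronger form TTATTTATT, on the message strand only. FOS held 5 copies of ATTTA in a 3′ UTR of 806 bases. Of the 1859 3′ UTRs within 25% of that length, 8.39% held as many or more. FOSL2 held more, 9 in a 3′ UTR of 4864 bases, where the same share was 58.3%. JUN, FOSB and ATF3 held 3 each, JUNB 2, and JUND and FOSL1 1 each. The share was 44.5% for JUN, 67.6% for FOSB, 42.0% for ATF3, 25.0% for JUNB, 61.8% for JUND and 61.0% for FOSL1. TTATTTATT was found in FOS and FOSL2, 2 of the 8 members, against 4.52% of 3′ UTRs of about the length of FOS and 21.5% of those of about the length of FOSL2. These are the sites, with the match in capitals and the bases on either side in lower case.
FOS: tttttaatTTATTTATTaagatgga
FOSL2: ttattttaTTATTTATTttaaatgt

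FOS, the founding member of the family (ENSG00000170345, GRCh38 chromosome 14, 75278826 to 75282230, plus strand), showed the lowest fold change of all genes tested. It stood at 1.72, 1.196 and 1.76 FPKM in OE replicates 1, 2 and 3, against 15.8, 18.5 and 46.6 FPKM in control vector replicates 1, 2 and 3. The groups were far apart, and the OE libraries were close to each other while control vector replicate 3 stood well above the other two controls. The means were 1.56 ± 0.314 FPKM in OE and 27.0 ± 17.1 FPKM in control vector libraries (SD, n = 3 each), so OE was at 0.0577 of the control mean. On log2(FPKM + 0.5), the scale of every fold change below, the OE minus control vector difference was -3.58 (SE 0.35), and without control vector replicate 3 it was -3.11. These levels rested on 78 to 274 fragments per OE library and 1708 to 6449 per control vector library. In such bulk samples fewer cells that express a gene and less of its RNA per cell cannot be told apart.

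The other FOS proteins differ in their activation domains. FOSB has one like that of FOS, and FOSL1 (FRA1) and FOSL2 (FRA2), whose messages usually come up later and last longer, lack it. FOSL1 was at 1.23, 1.33 and 0.665 FPKM in OE and at 1.43, 0.426 and 1.21 FPKM in control vector libraries, with a difference of 0.09 (SE 0.34). The groups overlapped fully. FOSB (chromosome 19, 45467995 to 45475179) was barely detected, at 0.0393, 0.194 and 0.0809 FPKM in OE and 0.0918, 0.161 and 0.129 FPKM in control vector libraries, from 6 to 22 and 23 to 31 fragments. Its span lies within that of ERCC1 on the other strand, which was at 22.7 ± 1.56 FPKM in OE and 24.6 ± 0.566 FPKM in control vector libraries (SD, n = 3 each), so fragments of the pair may not be separable.

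FOSL2 (chromosome 2, 28392448 to 28417317) had an uneven pattern within the controls. It was at 0.888, 0.587 and 0.576 FPKM in OE libraries, against 0.628, 0.0961 and 0 FPKM in control vector replicates 1, 2 and 3. The OE libraries were alike, and control vector replicate 1 lay among them while replicates 2 and 3 were far below. In fragments these are 175, 86 and 202 in OE and 203, 20 and 0 in control vector libraries, and the 0 allows up to 3 fragments, or 0.00965 FPKM, for counting error alone. The size of the difference is set by the pseudocount in a gene this low, at 0.76 (SE 0.37) with 0.5 and 1.67 with 0.1.

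**Figure D2:**
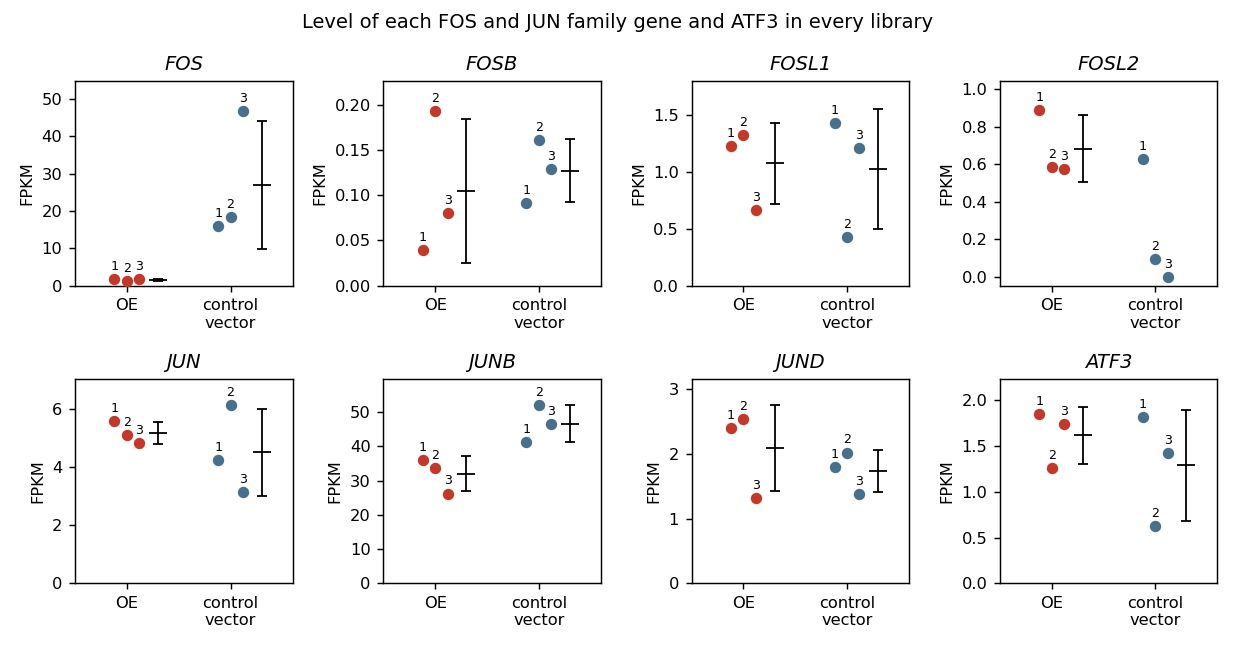
FPKM of each member in every library, OE left and control vector right, each panel on its own scale. Points are libraries numbered by replicate, and bars are mean ± SD over 3 libraries, left out for FOSL2 in the control vector group, where a library is listed at 0. FOS and JUNB are the members of which all OE libraries lie below all controls.

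JUNB, the most abundant JUN message in all 6 libraries, was the other member whose groups did not overlap. JUNB (chromosome 19, 12791486 to 12793315, plus strand) was at 36.0, 33.8 and 26.2 FPKM in OE replicates 1, 2 and 3, against 41.3, 52.1 and 46.6 FPKM in control vector replicates 1, 2 and 3. The lowest control was above the highest OE library. The means were 32.0 ± 5.11 FPKM in OE and 46.7 ± 5.39 FPKM in control vector libraries (SD, n = 3 each), a ratio of 0.686 and a difference of -0.54 (SE 0.15). Its locus lies within HOOK2 on the other strand, which was at 4.27 ± 0.296 FPKM in OE and 5.10 ± 1.04 FPKM in control vector libraries (SD, n = 3 each). JUNB was at the same level in control vector replicate 3 as in the mean of the other controls, with a ratio of 0.999, where FOS had 2.72.

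JUN, the founding JUN protein and a strong activator, had groups that overlapped. JUN (chromosome 1, 58776845 to 58784048, minus strand) was at 5.57, 5.11 and 4.84 FPKM in OE libraries, against 4.25, 6.13 and 3.15 FPKM in control vector libraries. The OE values lie inside the range of the controls, where replicate 2 was the highest and replicate 3 the lowest, the reverse of FOS for replicate 3. The difference was 0.22 (SE 0.23). JUND, usually described as broadly and steadily expressed, was low here, at 2.39, 2.53 and 1.32 FPKM in OE and 1.80, 2.02 and 1.37 FPKM in control vector libraries, with a difference of 0.19 (SE 0.27). It was lowest in replicate 3 of both groups. JUND is also the member with the highest GC content, and the part of base composition in its low level was not tested.

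ATF3 (chromosome 1, 212565334 to 212620777), a stress-induced repressor or activator depending on its partner, was at 1.84, 1.26 and 1.74 FPKM in OE and 1.81, 0.622 and 1.43 FPKM in control vector libraries. Replicate 2 was the lowest in both groups, and the groups overlapped. The difference was 0.30 (SE 0.31), and it was -0.01 without control vector replicate 2.

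Of the 8 members 6 reached the filter for testing, with FOSB and FOSL2 below it. FOS and JUNB, 2 of the 6, lay lower in all OE than in all control vector libraries, as did 9.9% of the 13984 genes tested, and groups failed to overlap in either direction in 24.1%. Since the members were picked with these values known, nothing is read from that count. FOS, JUNB, JUN, JUND and FOSL2 each had a difference of the same sign under every one of 15 alternative settings. The settings without a filter, without the trend and with a replicate block cannot change the difference. JUN came down to 0.02 without control vector replicate 3 and JUND to 0.05 without OE replicate 2, both below their SEs of 0.23 and 0.27. The sign of ATF3 and FOSB turned in 1 setting each and that of FOSL1 in 2.

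Per length, the order of the members differed between the groups only in the place of FOS. In OE libraries the mean levels ran JUNB, JUN, JUND, ATF3, FOS, FOSL1, FOSL2, FOSB. In control vector libraries they ran JUNB, FOS, JUN, JUND, ATF3, FOSL1, FOSL2, FOSB. Neighbours whose libraries did not overlap were JUNB and JUN, JUN and JUND, and FOSL2 and FOSB among OE libraries, and FOS and JUN, and JUN and JUND among controls. JUNB and FOS overlapped among the controls, because FOS in replicate 3 was level with JUNB. All other neighbours differed by less than the spread of their libraries.

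The make-up of each family followed from this. FOS made up 44.4%, 36.2% and 57.0% of the summed FPKM of the FOS family in OE replicates 1, 2 and 3, against 88.1%, 96.4% and 97.2% in control vector replicates 1, 2 and 3. The summed FOS family averaged 3.42 ± 0.414 FPKM in OE and 28.4 ± 16.98 FPKM in control vector libraries (SD, n = 3 each). FOSL1 and FOSL2 together thus stood near the level of FOS in OE libraries. The summed JUN family averaged 39.3 ± 6.07 FPKM in OE and 52.9 ± 6.62 FPKM in control vector libraries (SD, n = 3 each), and JUNB was 81.0% to 81.9% of it in OE and 86.5% to 91.2% in control vector libraries. FOS family messages came to 0.0797 to 0.0949 of JUN family messages in OE libraries, against 0.318 to 0.938 in control vector libraries.

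**Figure D3:**
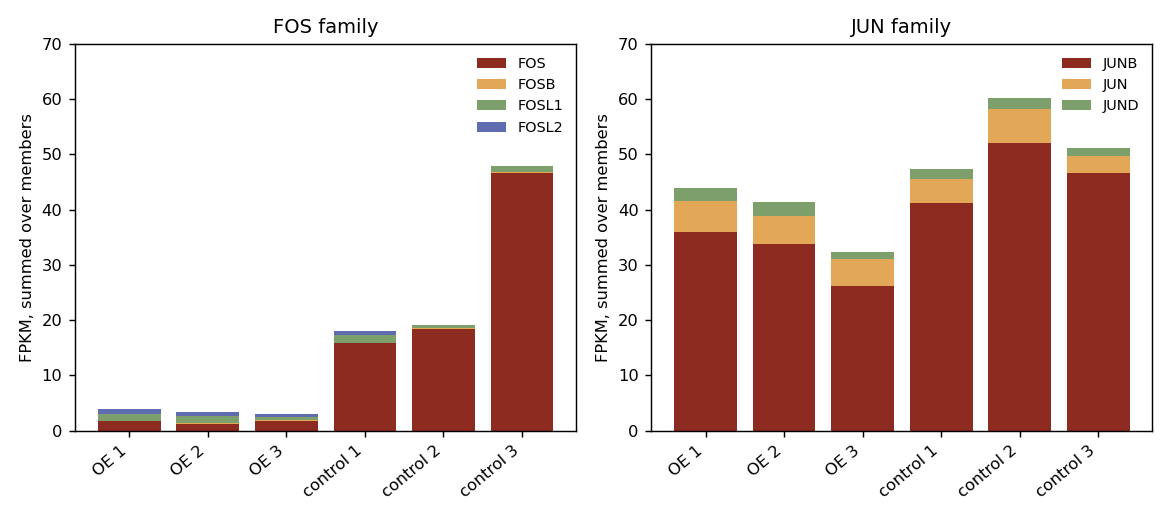
FPKM summed over the FOS family (left) and the JUN family (right) in each library, OE libraries first, with each member as a coloured part of the bar. The FOS family sum is 3.08 to 3.88 FPKM in OE and 18.0 to 48.0 FPKM in control vector libraries, while JUNB fills most of the JUN family bar in all 6.

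The genes around AP-1 were then examined in 6 lists, with 212 distinct genes, of which 6 stand on more than 1 list. They were tested with limma-trend over all 13984 genes, with Benjamini-Hochberg adjustment at 0.05, under which 159 genes passed (1.14%). Of these 74 were higher (0.529% of the genes tested) and 85 lower in OE libraries, a split of 181 and 52 with values rescaled to a common total and of 55 and 132 with median-of-ratios factors. An unadjusted p under 0.05 was given by 2477 of the 13984 genes, or 17.7%, the share against which the counts at that level in each list are to be read. Over all tested genes the median difference was 0.05, and it was 0.15 with values rescaled to a common total.

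Of 49 other immediate early and early response genes 30 could be tested, and 0 passed in either direction in limma-trend, with 9 at an unadjusted p under 0.05 (17.7% of all tested genes). Their median difference was 0.19, with 21 above 0 and 9 below. IER2, a nuclear immediate early protein, was at 15.6 ± 1.39 FPKM in OE and 21.3 ± 1.23 FPKM in control vector libraries (SD, n = 3 each), without overlap (limma-trend, Benjamini-Hochberg adjusted p = 0.126). DUSP4, a phosphatase that switches off ERK and JNK, had 10.9 ± 0.532 FPKM in OE and 6.41 ± 0.820 FPKM in control vector libraries (SD, n = 3 each; limma-trend, Benjamini-Hochberg adjusted p = 0.0564). PLK2, a polo-like kinase induced by neuronal activity, had the largest difference of the list at 1.57 (limma-trend, Benjamini-Hochberg adjusted p = 0.0627), with 10.01 ± 1.68 FPKM in OE and 3.41 ± 2.33 FPKM in control vector libraries (SD, n = 3 each). With values rescaled to a common total DUSP4 and PLK2 passed (limma-trend, Benjamini-Hochberg adjusted p = 0.0338 and 0.0470), and PLK2 passed without control vector replicate 1 and with the replicate block (limma-trend, Benjamini-Hochberg adjusted p = 0.0301 and 0.0357). RHOB, a small GTPase, had 0.63. The remaining 19 genes of the list lay below the filter, 3 of them listed at 0 in all libraries.

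Control vector replicate 3, where FOS was highest, was on both sides of the other controls in this list. Its ratio to their mean had a median of 1.04 over the 30 genes, and it was the highest of the 6 libraries for 23.3% of them, against 19.9% of all tested genes. EGR1, a zinc finger factor induced through the same serum response elements and named here after its values were seen, was at 5.69, 5.92 and 4.25 FPKM in OE libraries, against 6.27, 9.58 and 19.6 FPKM in control vector libraries. Its lowest control lay just above its highest OE library, and control vector replicate 3 was 2.48 times the mean of the other controls. The difference of -0.95 (SE 0.34) was the lowest of the list and did not pass (limma-trend, Benjamini-Hochberg adjusted p = 0.191). Also above 1.5 times the mean of the other controls in replicate 3 were DUSP1, a phosphatase induced by the same kinases, at 2.56, CCN1, a matricellular protein, at 2.48, SPRY2, a feedback inhibitor of receptor signalling, at 2.29, and MCL1, AMOTL2 and KLF6 at 1.87, 1.55 and 1.51. Together with EGR1 these were 7 of the 30 genes (23.3%), against 11.8% of all tested genes, and they too were picked from their values. On the other side lay HBEGF, a ligand of the EGF receptor, at 0.0585, CSRNP1 at 0.33 and TRIB1 at 0.40. ZFP36, which binds AU-rich elements, was at 0.54, PLK2 at 0.57 and IER5 at 0.62. Of these, HBEGF, TRIB1, IER5 and CSRNP1 were below 1 FPKM in control vector replicate 3, at 0.0847, 0.197, 0.581 and 0.834 FPKM. They were likewise picked from their values, and the share of all tested genes with ratios this low was not computed. DUSP1 was at 11.9, 13.8 and 12.1 FPKM in OE libraries, against 6.48, 11.5 and 23.0 FPKM in control vector libraries, so its groups overlapped where those of FOS did not. JUN, FOSL2 and JUND had lower ratios, of 0.608, 0 and 0.720, in the same library.

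**Figure D4:**
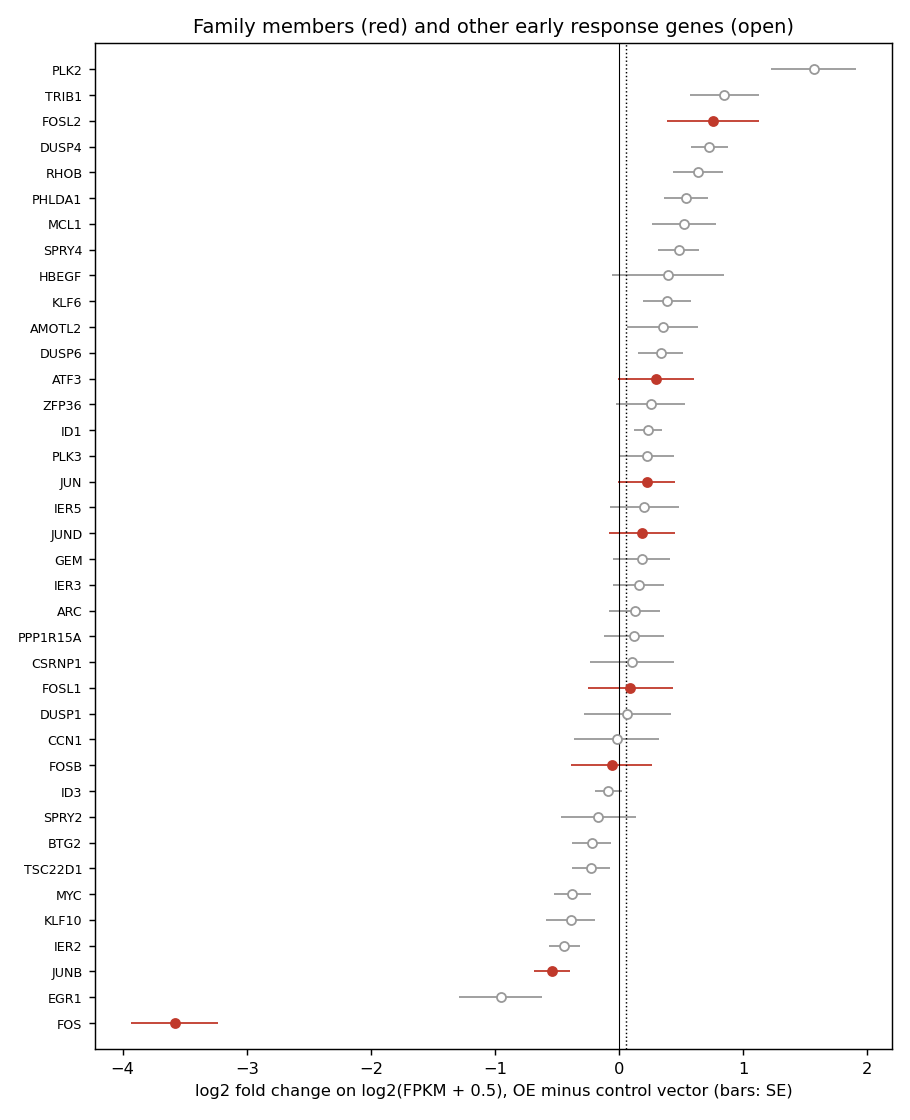
Difference between OE and control vector libraries for the 8 members (red) and 30 other early response genes (open circles), as log2 fold change on log2(FPKM + 0.5) with SE bars. The dotted line is the median of all tested genes, 0.05. FOS lies at -3.58, apart from EGR1 at -0.95 and JUNB at -0.54.

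Upstream of the family, the regulators that act at serum and cyclic AMP response elements gave 0 passing of 11 tested in limma-trend, with 1 at an unadjusted p under 0.05 (17.7% of all tested genes) and a median of 0.13. CREBBP, the CREB-binding acetyltransferase, had 0.79 (limma-trend, Benjamini-Hochberg adjusted p = 0.235), and CRTC2 and ELK3 had 0.26 and 0.24. CREB1 had -0.27, with one control far above the rest, at 2.13, 2.80 and 2.89 FPKM in OE libraries and 4.98, 2.66 and 2.51 FPKM in control vector libraries.

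In the ERK, JNK and p38 cascades, which phosphorylate those regulators and JUN itself, 0 of 28 tested genes passed in limma-trend, with 5 at an unadjusted p under 0.05 (17.7% of all tested genes) and a median of 0.03. RPS6KA2, a kinase of the RSK family, was at 12.98 ± 2.17 FPKM in OE and 8.03 ± 1.15 FPKM in control vector libraries (SD, n = 3 each; limma-trend, Benjamini-Hochberg adjusted p = 0.105). NRAS was at 23.6 ± 2.96 FPKM in OE and 35.1 ± 6.38 FPKM in control vector libraries (SD, n = 3 each; limma-trend, Benjamini-Hochberg adjusted p = 0.123). The difference was -0.37 for MAP2K4, a kinase that activates JNK.

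Among factors of AP-1 protein turnover and of AU-rich message decay, 1 of 23 tested genes rose (0.529% of all tested genes) and 0 fell in limma-trend. The median was -0.01, with 5 genes at an unadjusted p under 0.05 (17.7% of all tested genes). HNRNPD, also called AUF1, which binds AU-rich elements and has FOS mRNA among its described targets, was at 40.5, 46.7 and 43.4 FPKM in OE libraries, against 22.3, 26.7 and 27.9 FPKM in control vector libraries. Every OE library was well above every control. It rose to 43.5 ± 3.08 FPKM in OE libraries, against 25.6 ± 2.95 FPKM in control vector libraries (SD, n = 3 each), a difference of 0.76 (SE 0.12; limma-trend, Benjamini-Hochberg adjusted p = 0.0332). The call was lost in 7 of 15 alternatives, among them leaving out any library but control vector replicate 3 (limma-trend, Benjamini-Hochberg adjusted p = 0.0785 to 0.132). HNRNPD-DT, which overlaps it on the other strand, had 0.37. CNOT1 and CNOT7, of the deadenylase complex, had 0.39 and -0.49, and ELAVL1, which stabilises AU-rich messages, 0.59, none of which passed.

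Other basic leucine zipper genes, many of which can pair with JUN or FOS proteins, gave 0 of 22 past the threshold in limma-trend, with 3 at an unadjusted p under 0.05 (17.7% of all tested genes) and a median of 0.14. CREB3L2 was at 4.03 ± 0.738 FPKM in OE and 2.00 ± 0.503 FPKM in control vector libraries (SD, n = 3 each; limma-trend, Benjamini-Hochberg adjusted p = 0.102). CREB3, like CREB3L2 a membrane-bound factor cleaved in the Golgi, was at 75.7 ± 9.23 FPKM in OE and 58.9 ± 5.40 FPKM in control vector libraries (SD, n = 3 each; limma-trend, Benjamini-Hochberg adjusted p = 0.181). NFE2L1 and NFE2L2, which act on antioxidant and proteasome genes, had 0.56 and 0.29.

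Of 50 genes described as AP-1 targets 29 could be tested, and 3 rose (0.529% of all tested genes) and 0 fell in limma-trend. The other 26 did not pass, and the median was 0.21, with 23 above 0 and 6 below. Of the 29 genes, 10 were at an unadjusted p under 0.05 (17.7% of all tested genes). The list was drawn up with the rises of CCND1 and VIM in these libraries known, so its count is no independent evidence of a direction. CCND1, the G1 cyclin D1, rose to 119, 154 and 112 FPKM in OE libraries, against 54.2, 55.9 and 61.3 FPKM in control vector libraries (difference 1.15, SE 0.13; limma-trend, Benjamini-Hochberg adjusted p = 0.0215). SCG2, secretogranin II of dense-core vesicles, rose to 46.8, 49.8 and 51.3 FPKM in OE libraries, against 21.2, 25.8 and 26.9 FPKM in control vector libraries (difference 0.99, SE 0.12; limma-trend, Benjamini-Hochberg adjusted p = 0.0215). The 3 genes had no overlap between groups. VIM, the intermediate filament vimentin, rose to 73.1, 69.7 and 73.3 FPKM in OE libraries, against 43.2, 50.4 and 42.1 FPKM in control vector libraries (difference 0.67, SE 0.11; limma-trend, Benjamini-Hochberg adjusted p = 0.0332).

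CCND1 is overlapped on the other strand by LTO1, and VIM by VIM-AS1 and RP11-124N14.3. These differed by 1.03, 0.82 and 0.71, so fragments of the pairs may not be separable. LTO1 was at 5.85 to 8.62 FPKM in OE and 2.76 to 3.31 FPKM in control vector libraries, far below CCND1. VIM-AS1 was at 33.7 to 42.1 FPKM in OE and 18.7 to 25.1 FPKM in control vector libraries. RP11-124N14.3 was above VIM itself, at 177 to 198 FPKM in OE and 105 to 134 FPKM in control vector libraries. TNC, the matrix protein tenascin C, was at 5.56 ± 1.55 FPKM in OE and 2.11 ± 0.958 FPKM in control vector libraries (SD, n = 3 each) without passing (limma-trend, Benjamini-Hochberg adjusted p = 0.0749). The largest difference below 0 was -0.79, for the neuropeptide gene VIP, which did not pass. HNRNPD, CCND1, SCG2 and VIM kept their direction in all 15 alternatives, of which those without a filter, without the trend and with a replicate block cannot change it. CCND1 passed in 9 of the 15 and the others in 8 each. The calls were lost without a filter and without the trend. Leaving out OE replicate 1 or 2, or control vector replicate 1 or 2, ended all 4 calls, leaving out OE replicate 3 ended those of HNRNPD, SCG2 and VIM, and with a library left out the adjusted p reached 0.132, 0.0754, 0.0931 and 0.121 for HNRNPD, CCND1, SCG2 and VIM (limma-trend, Benjamini-Hochberg).

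**Figure D5:**
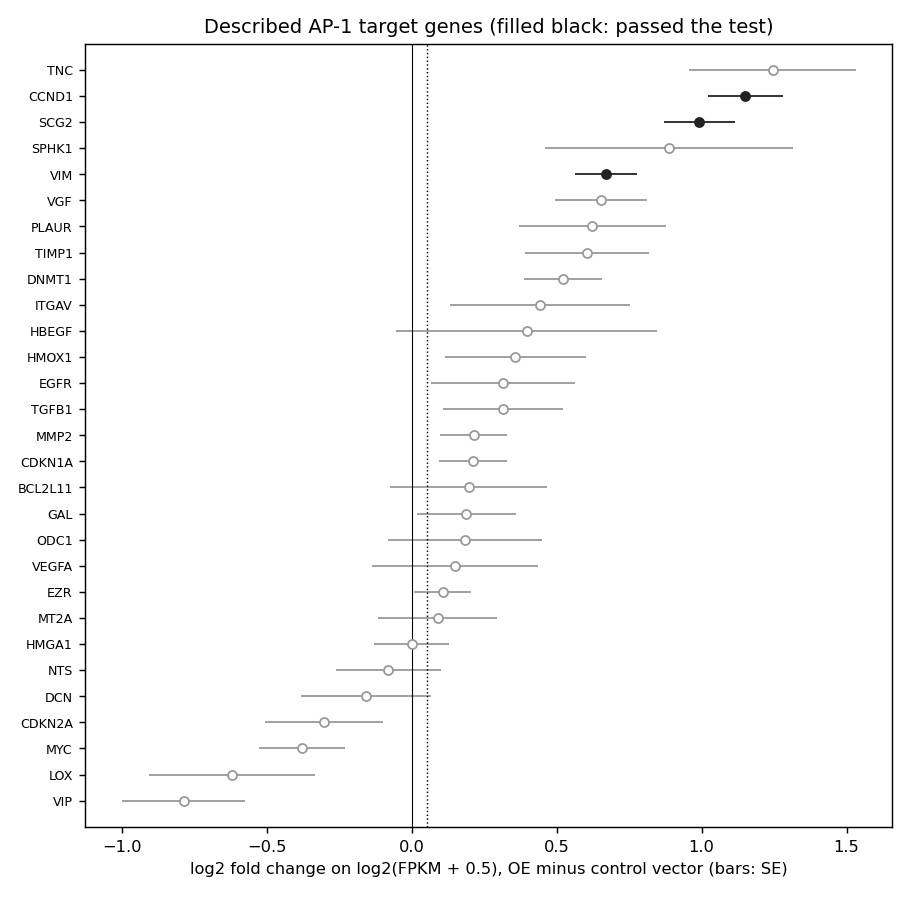
Difference between OE and control vector libraries for 29 described AP-1 target genes, as log2 fold change on log2(FPKM + 0.5) with SE bars, sorted. Filled black circles passed the test over all genes, open circles did not, and the dotted line is the median of all tested genes, 0.05. CCND1, SCG2 and VIM lie at 1.15, 0.99 and 0.67.

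Likeness of pattern was measured for the members with the widest range over the 6 libraries, FOS with 4.80 and FOSL2 with 1.47 on the log2 scale. The measure was the root mean square difference, over 6 libraries, between profiles of log2(FPKM + 0.5) centred on each gene's mean. The 5 tested genes nearest to FOS were RNVU1-2A, FOLR1, ENSG10010138238.1, LTF and SNORD73A, at 0.952, 0.977, 1.06, 1.08 and 1.08. FOLR1 and ENSG10010138238.1 reached the filter through the control vector libraries alone. LTF, which encodes lactoferrin, was at 1.48, 0.870 and 1.16 FPKM in OE libraries, against 5.20, 6.90 and 4.27 FPKM in control vector libraries, low in the same group but without the high value of replicate 3. SNORD73A was at 1.68, 3.76 and 1.41 FPKM in OE libraries, against 5.12, 6.62 and 13.5 FPKM in control vector libraries, highest in replicate 3 like FOS. RNVU1-2A and FOLR1 were also highest there, by less, and ENSG10010138238.1, like LTF, was lowest there among the controls. RNVU1-2A is a variant U1 small nuclear RNA gene with near-identical copies, so its own level is uncertain. The genes nearest to FOSL2 were CEP19, VASN, CHKB-DT, PRNP and HEXIM1, at 0.0881 to 0.118, far closer than any tested gene was to FOS. PRNP, the prion protein gene, was at 6.31, 6.12 and 6.06 FPKM in OE libraries, against 5.68, 3.01 and 2.28 FPKM in control vector libraries. It shares with FOSL2 a first control level with the OE libraries and lower values in the other controls.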

How the data were processed

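RNA of 6 libraries of SH-SY5Y cells was read as paired ends after SMART-seq synthesis, per the labels' protocols. The submitters' processing notes name STAR 2.7.9 and featureCounts 2.0.1, with strand use not given in the sources used here. The deposited table gives FPKM by the authors, with gene length and position, per the file headers. Per library, the products of FPKM and kilobases of length add up to 1000000. The most frequent low value was taken as a single fragment, which made 100% of values up to 1000 fragments multiples of 0.01 within 0.001, with 44.2% to 49.0% whole, and gave the depth. The filter kept genes that reached 1 FPKM in 3 or more of the 6 libraries. Their log2(FPKM + 0.5) went into limma 3.58.1 (R 4.3.3) with its variance trend on (limma-trend), no block, and Benjamini-Hochberg adjustment over all tested genes. Such a scale understates the changes of low genes. The fit was tested on simulated data. CDKN2B-AS1 was tested in SciPy 1.17.1. FOSB and FOSL2, below the filter, were fitted beside the tested genes.

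The members and gene lists were chosen with earlier results of these data known. Named were the members, in each list every gene that passed and up to 4 of smallest p, the 5 genes nearest in pattern to the 2 members of widest range, CDKN2B-AS1, and genes overlapping a member. A gene that this rule names is not reported here. Alternatives were other pseudocounts, no filter, other scalings, fragments with limma-voom, no trend, a replicate block, leaving out each library and, added after the data were seen, removing the trend with gene length. Promoters came from RefSeq on GRCh38.p14 and transcripts from GENCODE v29, and FOSL1 was looked for in the promoter table only.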

Additional observations from a re-analysis of the deposited data

How the results depend on the processing

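FOS ran from -3.96 to -3.11 and JUNB from -0.63 to -0.41 over 15 alternatives, lower in OE in each. Those without a filter, without the trend and with a replicate block cannot change these differences. FOSL2 moved to 1.67 with a pseudocount of 0.1 and 3.89 with limma-voom on recovered fragments, and FOSB to -0.21 and -0.54. With any library left out the ranges were -3.87 to -3.11 for FOS, -0.63 to -0.41 for JUNB, 0.02 to 0.44 for JUN, 0.05 to 0.42 for JUND, -0.01 to 0.51 for ATF3, -0.23 to 0.29 for FOSL1, 0.52 to 1.11 for FOSL2 and -0.16 to 0.02 for FOSB. Of all genes 0 passed without a filter and 0 without the trend, with 3538 and 2304 at an unadjusted limma p under 0.05, and 0 to 139 passed with a library left out. The 0 calls came without OE replicate 1, OE replicate 2 or control vector replicate 2, where 1689, 1612 and 2274 genes had an unadjusted limma p under 0.05, and 3 came without OE replicate 3 or control vector replicate 1. Described AP-1 targets had 0 calls without a filter or trend and 0 to 3 with a library left out. Turnover genes had 0 and 0, and 0 to 1. Early response genes had 2 after rescaling to a common total and 0 to 1 with a library left out. CREB1, which did not pass, ran from -0.43 to 0.0026 with a library left out, the sign turning without control vector replicate 1. The cause was not tested. Whether equal replicate numbers pair the libraries was not settled. Correlations of deviations were -0.02, 0.11 and 0.12 for equal numbers 1, 2 and 3. Control vector replicate 1 was closest to OE replicate 3, at 0.05. Control vector replicate 3 was closest to the OE library of equal number. So was control vector replicate 2, by a small margin, at 0.105 against 0.102 for OE replicate 1. The replicate block gave 229 calls against 159, and 1 in the early response list, PLK2. FOSB rests on 6 to 31 fragments a library and FOSL2 on 0 to 203.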
